A study of Mus musculus with 6 samples.

Results

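The metalloprotease genes of the mouse retina and the genes of their tissue inhibitors were compared between 2 inbred strains. Members were taken by symbol: all genes named Adam, Adamts (with the Adamts-like genes), Mmp or Timp followed by their number, except Adamts13. The rule found 83 members among the 30510 features counted: 33 Adam, 18 Adamts, 5 Adamts-like, 23 Mmp and 4 Timp genes. Total RNA had been sequenced from the retina of C57BL/6J (B6) and DBA/2J (D2) mice, 3 libraries per strain. B6 is the strain of the mouse reference genome, and D2 is an inbred strain known for developing pigmentary glaucoma with age. Mice of both strains were wild type and 60 to 100 days old, and retinas of both eyes were taken. Whether each library came from its own mouse is not in the labels, so that p-values reflect the variation among these 6 libraries, part or all of which may be technical.

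ADAM proteins are membrane proteases that cut the outer part off other membrane proteins, a step called shedding, and several of them have lost the protease activity and act in adhesion. ADAMTS proteins are secreted proteases that cleave matrix proteoglycans and procollagens, and the related ADAMTS-like proteins lack the protease domain. Matrix metalloproteases (MMPs) degrade extracellular matrix, and TIMPs bind and block the active site of many of these enzymes. In the eye these families are known from the interphotoreceptor matrix, Bruch's membrane, the lens zonule and the drainage tissue.

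The protease families share a stretch of coding sequence for the pattern His-Glu-x-x-His-x-x-x-x-x-His, whose 3 histidines hold the catalytic zinc. It was found in the coding transcripts (GENCODE M21, mm10) of 61 of the 83 members. All 18 Adamts and all 23 Mmp genes had it, and 20 of the 33 Adam genes did, while no Adamts-like and no Timp gene did. The coding-strand stretches of 7 abundant or strain-different proteases are shown 5′ to 3′, with the 3 histidine codons in capitals.
Adam9: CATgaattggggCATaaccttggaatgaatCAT
Adam10: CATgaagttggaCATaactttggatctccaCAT
Adam17: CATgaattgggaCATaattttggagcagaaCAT
Adamts3: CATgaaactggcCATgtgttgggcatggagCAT
Adamts4: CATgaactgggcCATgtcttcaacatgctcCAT
Mmp9: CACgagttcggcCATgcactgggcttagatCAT
Mmp28: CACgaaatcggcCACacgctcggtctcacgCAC
The Adam9 stretch lies at chr8:24990326-24990358 on the minus strand, the Mmp9 stretch at chr2:164951133-164951165 on the plus strand and the Mmp28 stretch at chr11:83444921-83444953 on the minus strand (mm10). In Adam10, Adamts3 and Adamts4 the stretch crosses an exon junction. A glycine codon stood at position 8 of the 11 codons in all but 6 of the 61 members, and the 6 exceptions, Adamts4 among them, were Adamts genes.

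Of the abundant or strain-different Adam genes without the pattern, 4 are shown by the stretch that aligned to the Adam9 site in a global protein alignment; Adam11, also without it, aligned there with a gap and is not shown. They are written with the codons opposite the 3 histidines in capitals.
Adam22: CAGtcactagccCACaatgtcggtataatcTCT
Adam23: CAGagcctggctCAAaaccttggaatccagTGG
Adam32: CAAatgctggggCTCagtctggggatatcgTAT
Adam5: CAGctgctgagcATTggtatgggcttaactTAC
Adam22 kept 1 of the 3 histidines, and the others kept none of them. None of these stretches kept the glutamate that acts in catalysis. Over the whole alignment these proteins were 31.4% to 37.7% identical to Adam9.

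Levels are given first as counts per 1000000 (CPM, the count over the total count of its library, without further scaling). Of the 83 members, 48 reached a mean of 1 CPM over the 6 libraries and 35 did not. The members nearest to that split were Mmp23 at 0.942 CPM and Adam21 at 0.939 CPM below it, and Adamts2 at 1.16 CPM and Adam5 at 1.18 CPM above it. All 5 Adamts-like genes, 15 of 18 Adamts, 3 of 4 Timp, 10 of 23 Mmp and 15 of 33 Adam genes were above. Library totals were 31305777 to 43719666 counts in B6 and 29417002 to 34478751 in D2, so that 3 counts, the limit a count of 0 allows, stood for 0.0686 to 0.102 CPM.

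All members together took 906, 935 and 930 CPM in the B6 libraries and 853, 891 and 858 CPM in the D2 libraries. Adam genes made up 48.8% of this level, Adamts genes 17.5%, Timp genes 16.0%, Mmp genes 13.5% and Adamts-like genes 4.10%. Per kilobase of annotated exon, which allows genes to be compared with each other, Adam9 was highest with a level of 28.6 CPM per kilobase. It was followed by the inhibitors Timp2 with 13.7 and Timp3 with 10.8 CPM per kilobase. Next came Adam10 with 9.70, Mmp24 with 8.67, Adamts3 with 8.18, Adam11 with 5.98, Adam22 with 5.74 and Adamts5 with 4.79 CPM per kilobase. The highest Mmp and Adamts genes thus lay just below Adam10 in level, and the gelatinases Mmp2 and Mmp9 lay at 2.71 and 2.48 CPM per kilobase.

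**Figure D1:**
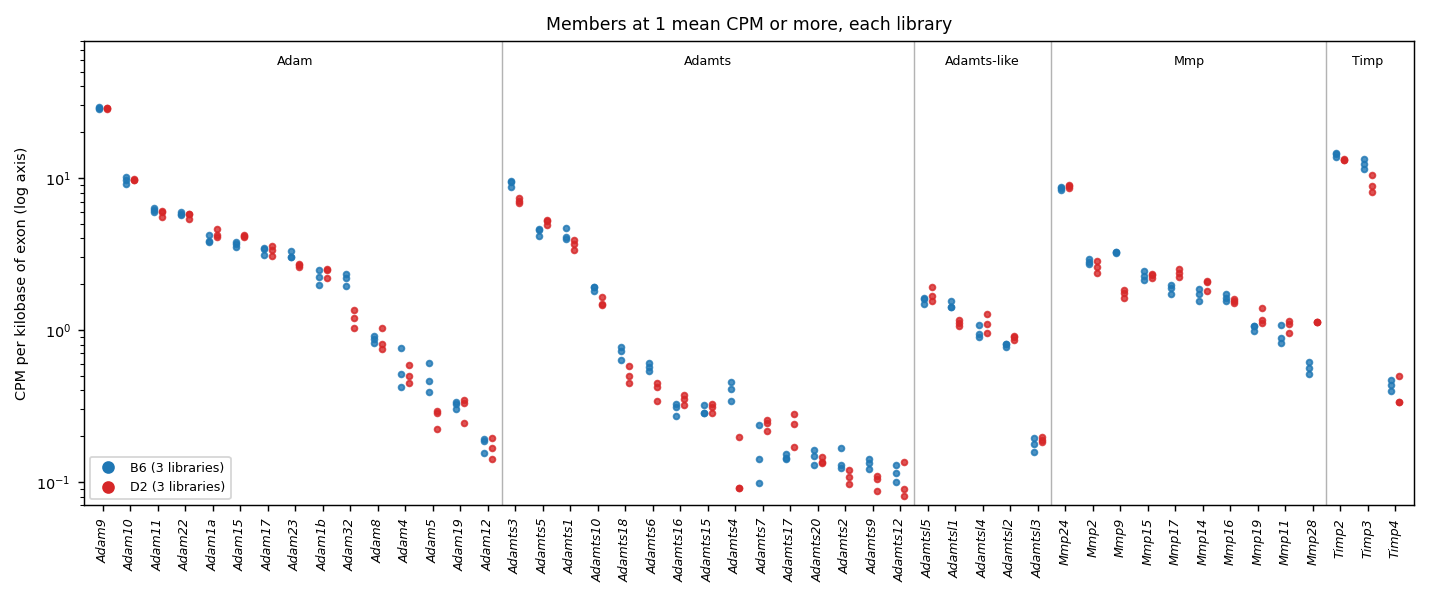
Level of the 48 members with a mean of 1 CPM or more, in CPM per kilobase of exon on a log axis; each point is a library, blue for B6 and red for D2, and genes are ordered within their class by mean level. Adam9 stands highest at 28.6 CPM per kilobase, and Mmp9, Mmp28, Adamts4, Adam32 and Adam5 show the red points apart from the blue ones.

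The members without signal lay in part side by side in the genome. No count in any library was recorded for 16 members, 9 Adam and 7 Mmp genes. The row of 10 Mmp genes at chr9:7272514-7699585, which holds the collagenase Mmp13, the stromelysins Mmp3 and Mmp10 and the macrophage elastase Mmp12, held 65 counts over all 6 libraries, and 7 of its genes had none. Of these counts, 47 belonged to Mmp12, 15 to Mmp13 and 3 to Mmp3. Another 13 members had counts but too few to be tested. The 3 with the most counts were Timp1 with 5, 13 and 12 counts in the B6 libraries and 8, 9 and 5 in those of D2, Mmp12 with 7, 18 and 5 against 4, 5 and 8, and Adam28 with 6, 7 and 7 against 0, 4 and 6. Timp1, an inhibitor known to be induced in injured and inflamed retina, was therefore rare in both strains, at 0.252 CPM on average over the libraries.

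Inducible Mmp genes are known for a promoter with an AP-1 site close to a TATA box, and the 250 bases before the annotated start (RefSeq, GRCm38.p6) were searched on both strands for the AP-1 motif TGANTCA, the GC box letters GGGCGG and the TATA box letters TATAAA. Promoters were found for 52 members with 57 starts. The other members, among them Mmp9, Adam9, Adamts4 and Adam32, had no promoter in the source and were not searched. An AP-1 match was present in 12 of these 57 starts (21.05%), against 6.75% of 32851 starts of all genes. A TATA box match was present in 22.81% against 12.37%, and a GC box match in 42.11% against 32.74%. The 12 members with an AP-1 match were Adam19, at 2.23 CPM, and 11 members below 1 CPM, among them Mmp3, Mmp12 and Mmp13. Most of the 11 are neighbours in the chromosome 9 row of Mmp genes, and Mmp7, Mmp12 and Adam19 also had starts without a match. Of the 40 members with a promoter and no match, 28 were at 1 CPM or more. The promoters of Mmp13, of the near-silent row, and of Timp3, the inhibitor with the highest CPM, are shown 5′ to 3′ on the strand of the gene with the matches in capitals; CCGCCC is the GC box read on the other strand.
Mmp13: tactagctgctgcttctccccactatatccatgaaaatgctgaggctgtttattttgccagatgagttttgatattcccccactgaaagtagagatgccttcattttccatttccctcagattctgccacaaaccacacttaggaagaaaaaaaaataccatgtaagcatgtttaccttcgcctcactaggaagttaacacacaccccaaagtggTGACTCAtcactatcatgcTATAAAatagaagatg
Timp3: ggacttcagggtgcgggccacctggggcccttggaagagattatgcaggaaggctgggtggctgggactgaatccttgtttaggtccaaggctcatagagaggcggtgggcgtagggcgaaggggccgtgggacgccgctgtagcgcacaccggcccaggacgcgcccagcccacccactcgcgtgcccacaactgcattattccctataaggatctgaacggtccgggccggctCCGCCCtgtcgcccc
The Mmp13 sequence is chr9:7272264-7272513 on the plus strand, with the AP-1 match starting 35 bases before the start and 40.4% G and C. The Timp3 sequence is chr10:86300162-86300411 on the plus strand, with the GC box match starting 15 bases before the start and 65.6% G and C. A match describes the letters and shows no binding.

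The strains were compared with edgeR's quasi-likelihood test over 18588 genes, with p-values adjusted by Benjamini-Hochberg over all of them and a threshold of 0.05, and log2 fold changes are D2 minus B6 with their standard error. Of the 83 members, 54 had enough counts to be tested. Of these, 6 were higher in D2, 14 were lower and 34 did not pass, so that 37.0% of the tested members were called, against 29.7% of all tested genes (14.5% higher and 15.3% lower). In 24 of the 54 members the libraries of the strains did not overlap, against 42.3% of all genes. The median absolute log2 fold change was 0.19 over the tested members and 0.13 over all genes, and the signed medians were -0.06 and 0.00. Of the called members, 8 had a difference of at least 0.58 on the log2 scale, which 9.05% of all genes had with a call. The 8 were Mmp9, Adamts4, Adamts19, Adam32 and Adam5, lower in D2, and Mmp28, Adamts17 and Adam33, higher in D2. Adamts19 and Adam33 had passed the filter on low counts only through the strain where they were higher and so had to differ. Both are also among the 24 members without overlap, where their separation is no result. Without them 18 members were called and 6 reached that size.

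By class, Adamts genes had the most calls, with 7 lower, 2 higher and 8 not passed, and their median log2 fold change was -0.24. Of the Adam genes 3 were lower, 2 higher and 12 not passed. Of the Mmp genes 1 was lower, 2 were higher and 9 not passed. Of the Adamts-like genes 1 was lower and 4 did not pass, and of the Timp genes 2 were lower and 1 did not pass. The called share was 52.9% of the tested Adamts, 29.4% of the Adam and 25% of the Mmp genes. It was 20% of the 5 Adamts-like and 66.7% of the 3 tested Timp genes, against 29.7% of all tested genes. Of the 40 tested members with the zinc pattern 6 were higher and 8 lower, and of the 14 without it none was higher and 6 were lower. Over all tested genes 14.5% were higher and 15.3% lower. The counts by class and by pattern include Adamts19 (lower) and Adam33 (higher), both with the pattern, which entered the test through 1 strain only.

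**Figure D2:**
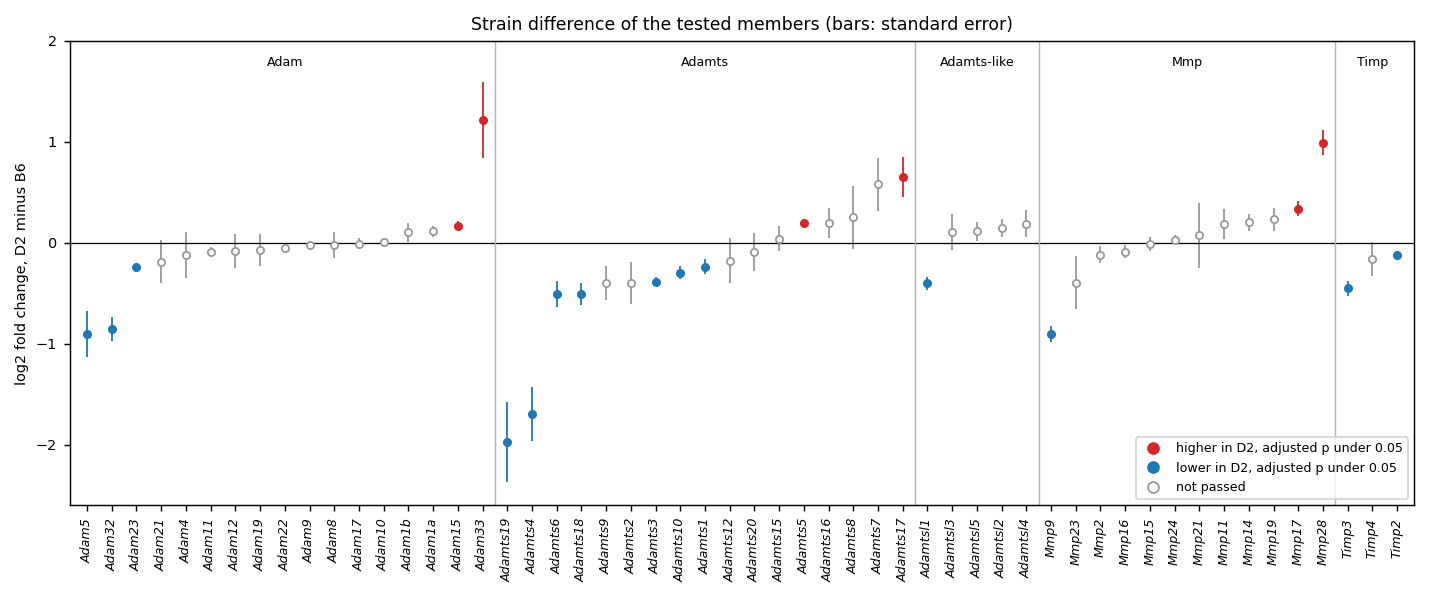
Log2 fold change, D2 minus B6, of the 54 tested members by class, with bars for the standard error; filled points passed an adjusted p of 0.05, red when higher and blue when lower in D2. Most points lie near 0, with Adamts19 at -1.97, Adamts4 at -1.70, Mmp28 at 0.99 and Adam33 at 1.21 farthest out.

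Among the membrane sheddases no strain difference was called for the best known enzymes. Adam9, a protease whose loss causes cone-rod dystrophy in humans, had 116, 120 and 118 CPM in B6 and 118, 118 and 116 CPM in D2. Adam10, the constitutive sheddase of Notch and of the amyloid precursor protein, had 44.5, 49.9 and 47.7 CPM in B6 and 47.3, 48.7 and 47.7 CPM in D2. Adam17, which releases tumour necrosis factor and ligands of the epidermal growth factor receptor, had 22.3, 24.7 and 24.4 CPM in B6 and 21.9, 25.3 and 24.1 CPM in D2. The libraries of the strains overlapped in all 3 genes. The log2 fold change of Adam9 was -0.02 with a 95% interval of -0.09 to 0.05, that of Adam10 was 0.01 (-0.09 to 0.10) and that of Adam17 was -0.01 (-0.13 to 0.11). None passed edgeR's test, with adjusted p = 0.715 for Adam9, 0.921 for Adam10 and 0.926 for Adam17. Adam17 shares 311 exon bases with Iah1 on the other strand, which was called lower (-0.53 ± 0.09, adjusted p = 0.00046 by edgeR).

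The adhesion-type Adam genes of neurons were abundant as well. Adam22, a receptor of the secreted protein LGI1 at synapses, had 81.7, 85.6 and 83.1 CPM in B6 and 77.4, 82.8 and 83.6 CPM in D2, with overlapping strains and a log2 fold change of -0.05 (95% interval -0.12 to 0.03, adjusted p = 0.354 by edgeR). Adam11, of the same subgroup, had 35.9, 34.8 and 33.8 CPM in B6 and 34.1, 33.7 and 31.2 CPM in D2, and its log2 fold change of -0.09 ± 0.05 did not pass (adjusted p = 0.208 by edgeR). Adam23, a further LGI1 receptor, fell from 59.6, 53.9 and 54.3 CPM in B6 to 46.7, 48.5 and 47.6 CPM in D2. All 3 D2 libraries lay below the lowest B6 library, and the log2 fold change was -0.24 ± 0.05 (edgeR, adjusted p = 0.00101). Adam15, a sheddase known from endothelium and retinal vessel growth, had 22.6, 23.2 and 21.6 CPM in B6 and 25.1, 25.7 and 25.4 CPM in D2, a log2 fold change of 0.17 ± 0.05 (edgeR, adjusted p = 0.0154). Adam15 shares 1263 exon bases with 4731419I09Rik on the other strand, which did not pass (0.24 ± 0.10, adjusted p = 0.0808 by edgeR). The Adam15 call was lost by DESeq2 (adjusted p = 0.0837) and by edgeR without D2 replicate 1 (0.0594).

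A pair of Adam genes that are known mainly from testis and lie in a row on chromosome 8 fell in D2. Adam32, at chr8:24836140-24948804, had 6.56, 5.82 and 7.0 CPM in B6 and 3.09, 3.61 and 4.03 CPM in D2. Adam5, at chr8:24727093-24824369, had 1.90, 1.45 and 1.21 CPM in B6 and 0.884, 0.910 and 0.696 CPM in D2. In both genes every D2 library was below every B6 library. Adam32 fell 1.81-fold (log2 fold change -0.85 ± 0.12, edgeR, adjusted p = 5.46e-05) and Adam5 fell 1.87-fold (-0.91 ± 0.23, adjusted p = 0.00662). Both lack the zinc pattern, as their stretches above show. The next gene in the row, 807 bases beyond Adam32 on the same strand, was Adam9 at chr8:24949611-25016927, whose level did not pass the test. On the other side, Adam3 and Adam18 had 12 and 10 counts over all libraries and were not tested. Reads of D2 were aligned to a genome of the B6 strain, and the effect of sequence differences between the strains on these counts was not analysed here.

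Adam33, a protease known from airway smooth muscle, was rare, with counts of 9, 6 and 5 in B6 against 9, 14 and 16 in D2. Scaled to depth, its 3 D2 libraries were above all B6 libraries, with means of 0.170 ± 0.0316 and 0.403 ± 0.0851 CPM (SD, n = 3) and a log2 fold change of 1.21 ± 0.37 (edgeR, adjusted p = 0.0231). Only its D2 libraries reached the 0.301 CPM that the filter on low counts asks for, so that it entered the test through the strain where it was higher. The separation of its libraries was thus set by the filter and is no support for a difference. Without that filter the adjusted p of Adam33 was 0.0363 by edgeR. Its call was lost by DESeq2 (adjusted p = 0.156) and by edgeR without B6 replicate 2 (0.0924), B6 replicate 3 (0.0600) or D2 replicate 2 (0.0692). Of the Adam genes that did not pass, Adam1a passed when B6 replicate 3 was left out (adjusted p = 0.0321).

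The secreted Adamts proteases held the largest relative differences. Adamts4, an aggrecanase that cleaves the large chondroitin sulfate proteoglycans, fell from 2.17, 1.96 and 1.63 CPM in B6 to 0.952, 0.439 and 0.435 CPM in D2, on counts of 95, 81 and 51 against 28, 14 and 15. The highest D2 library was well below the lowest B6 library. The means were 1.92 ± 0.274 and 0.609 ± 0.297 CPM (SD, n = 3), a 3.24-fold difference (log2 fold change -1.70 ± 0.27, edgeR, adjusted p = 0.00018), and over the alternatives the log2 fold change ran from -2.16 to -1.49. Adamts4 lies at chr1:171250421-171260637 (mm10).

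Adamts19, on chromosome 18, was rare, with counts of 21, 18 and 23 in B6 against 3, 5 and 5 in D2. Every D2 library was below every B6 library, with means of 0.550 ± 0.161 and 0.135 ± 0.0289 CPM, and it fell 3.92-fold (log2 fold change -1.97 ± 0.40, edgeR, adjusted p = 0.00143). Only its B6 libraries reached the 0.301 CPM of the filter, so that it entered the test through the strain where it was higher. The separation of its libraries was thus set by the filter and is no support for a difference. Without that filter the adjusted p of Adamts19 was 0.000659 by edgeR. Adamts3, which cuts the amino-terminal propeptide off fibrillar procollagens and processes VEGF-C, was the most abundant Adamts gene per length. It fell from 47.0, 51.5 and 52.1 CPM in B6 to 37.1, 40.3 and 38.4 CPM in D2. The strains did not overlap, and the 1.31-fold difference (log2 fold change -0.39 ± 0.05) had an adjusted p of 1.23e-05 by edgeR.

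The aggrecanase Adamts5 went the other way. It had 49.8, 49.0 and 45.1 CPM in B6 and 52.8, 56.5 and 56.7 CPM in D2, and rose by 0.19 ± 0.04 on the log2 scale (edgeR, adjusted p = 0.00383), with every D2 library above every B6 library. Adamts5 exceeded Adamts4, the other main aggrecanase, many times over in level: the means over all libraries were 4.79 and 0.263 CPM per kilobase. Adamts1, a further proteoglycan-cleaving protease, had 21.7, 24.7 and 21.2 CPM in B6 and 20.7, 17.8 and 19.4 CPM in D2. Its log2 fold change was -0.24 ± 0.07 (edgeR, adjusted p = 0.02), and the call was lost without B6 replicate 2 (adjusted p = 0.106), D2 replicate 2 (0.106) or D2 replicate 3 (0.0533).

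From the Adamts and Adamts-like genes, Adamts10, Adamts17, Adamts18 and Adamtsl4 had been chosen as known from human eye disease, which is not a complete list. The first 3 were called between the strains, and Adamtsl4, given below, did not pass. Over all tested genes 29.7% were called. Adamts10, a microfibril-associated protease mutated in Weill-Marchesani syndrome, fell from 15.7, 15.9 and 14.8 CPM in B6 to 12.3, 13.7 and 12.1 CPM in D2 (log2 fold change -0.30 ± 0.06, edgeR, adjusted p = 0.00222). Adamts18, mutated in a syndrome with microcornea and retinal dystrophy, fell from 7.34, 7.83 and 6.48 CPM to 5.03, 5.90 and 4.52 CPM (-0.50 ± 0.11, adjusted p = 0.00259 by edgeR). In both genes the D2 libraries lay below all B6 libraries. Adamts17, also mutated in a Weill-Marchesani-like syndrome, had 1.10, 1.11 and 1.18 CPM in B6 and 1.33, 2.17 and 1.86 CPM in D2 and rose 1.57-fold (0.65 ± 0.20, edgeR, adjusted p = 0.0202). The Adamts17 call was lost by DESeq2 (adjusted p = 0.0772) and by edgeR without B6 replicate 1 (0.0511), B6 replicate 2 (0.0708), D2 replicate 2 (0.0975) or D2 replicate 3 (0.0635).

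Adamts6, a close relative of Adamts10, fell from 4.16, 4.46 and 4.73 CPM in B6 to 3.47, 2.67 and 3.28 CPM in D2 without overlap (log2 fold change -0.51 ± 0.13, edgeR, adjusted p = 0.00722). Adamts2 and Adamts9 also had no overlap of the strains but did not pass, with log2 fold changes of -0.40 ± 0.21 and -0.40 ± 0.17 (edgeR, adjusted p = 0.174 and 0.0865). Adamts7 did not pass (0.58 ± 0.26, adjusted p = 0.113 by edgeR) but did without B6 replicate 2, its highest B6 library (adjusted p = 0.0104).

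Of the Adamts-like genes, which code for matrix proteins without a protease, Adamtsl1 fell from 19.9, 18 and 18.1 CPM in B6 to 14.3, 14.9 and 13.6 CPM in D2. The strains did not overlap, and the log2 fold change was -0.40 ± 0.06, a 1.32-fold difference (edgeR, adjusted p = 0.000184). Adamtsl4, which is needed for the lens zonule and is mutated in human ectopia lentis, had 3.93, 3.76 and 4.50 CPM in B6 and 5.37, 4.61 and 4.0 CPM in D2. Its strains overlapped, and its log2 fold change of 0.19 ± 0.13 did not pass (edgeR, adjusted p = 0.313). Adamtsl2 had no overlap but did not pass either (0.15 ± 0.09, adjusted p = 0.242 by edgeR).

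Of the Mmp genes Mmp9 fell, and Mmp28 and Mmp17 rose. Mmp9 (gelatinase B, chr2:164940780-164955850), known for its induction in retinal injury, fell from 11.5, 11.5 and 11.3 CPM in B6 to 5.78, 6.15 and 6.50 CPM in D2. The spread within a strain was small against the difference, with means of 11.4 ± 0.115 and 6.14 ± 0.359 CPM (SD, n = 3). Mmp9 was 1.87-fold lower in D2 (log2 fold change -0.90 ± 0.08), with the lowest adjusted p among the members (3.35e-07 by edgeR). Mmp2 (gelatinase A), which has the same substrates, had 9.10, 9.45 and 9.93 CPM in B6 and 8.02, 8.76 and 9.57 CPM in D2. Its strains overlapped, and its log2 fold change of -0.12 ± 0.08 did not pass (adjusted p = 0.314 by edgeR).

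Mmp28 (epilysin, chr11:83440768-83463071) rose from 1.99, 2.18 and 2.40 CPM in B6 to 4.35, 4.36 and 4.35 CPM in D2. The 3 D2 libraries were nearly equal and all above B6, and the difference was 1.99-fold (log2 fold change 0.99 ± 0.12, edgeR, adjusted p = 2.00e-05). Mmp28 shares 466 exon bases with 1700020L24Rik on the other strand, which rose as well, from 0.792 ± 0.0125 to 1.52 ± 0.0552 CPM (0.93 ± 0.19, adjusted p = 0.00156 by edgeR). How strand was treated in counting is something not given in the sources used here, and reads of the shared bases cannot be told apart between the 2 genes if strand was not used.

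Of the tested membrane-type MMPs (Mmp14, Mmp15, Mmp16, Mmp17 and Mmp24) Mmp17 alone was called. Mmp24, a membrane-type MMP of neurons that cleaves N-cadherin, was the most abundant Mmp gene, with 40.0, 41.0 and 39.1 CPM in B6 and 41.2, 40.2 and 42.0 CPM in D2, and did not pass by edgeR (log2 fold change 0.03 ± 0.04, adjusted p = 0.643). Of its 31-base words, 13.0% also occur in other genes, mainly BC029722, which overlaps it on the other strand. Mmp14, the membrane-type enzyme that activates pro-MMP2, had 10.3, 11.1 and 9.23 CPM in B6 and 12.3, 10.8 and 12.4 CPM in D2. The strains overlapped, and the log2 fold change of 0.20 ± 0.08 did not pass by edgeR (adjusted p = 0.0894) except without D2 replicate 2 (0.0319). Mmp17, a membrane-type MMP anchored by a lipid, rose from 12.5, 11.5 and 13.1 CPM in B6 to 16.7, 15.7 and 14.7 CPM in D2. The strains did not overlap (log2 fold change 0.34 ± 0.07, edgeR, adjusted p = 0.00274). Mmp19 had no overlap but did not pass (0.23 ± 0.12, adjusted p = 0.163 by edgeR) and shares 789 exon bases with Tmem198b on the other strand.

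**Figure D3:**
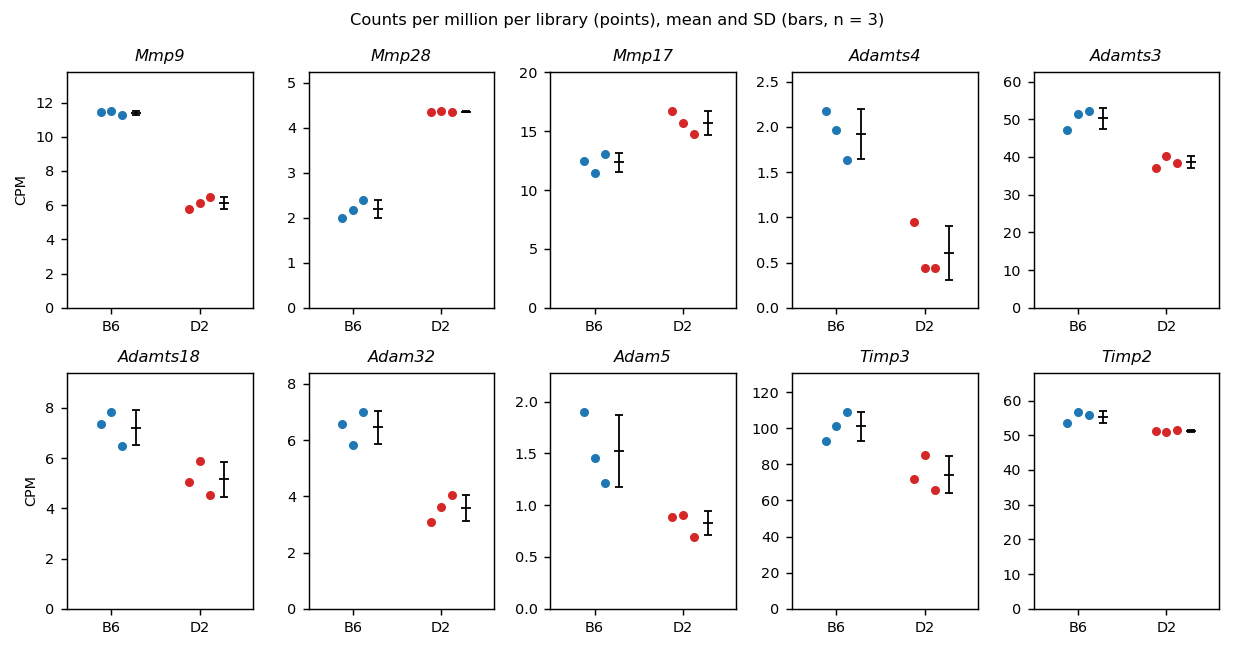
CPM of 10 members in each library (points, blue B6 and red D2) with the mean and SD of each strain (black, n = 3); every vertical axis starts at 0. The strains do not overlap in any of the 10 panels, and the gap is widest relative to the level in Adamts4, 1.92 against 0.609 CPM, and narrow in Timp2, 55.3 against 51.3 CPM.

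Of the 3 tested inhibitors, 2 were lower in D2, against 15.3% of all tested genes, and the call of Timp2 was lost under several alternatives. Timp3, a matrix-bound inhibitor that is mutated in Sorsby fundus dystrophy and made in quantity by the retinal pigment epithelium, had 92.8, 101 and 109 CPM in B6 and 71.8, 85.3 and 65.8 CPM in D2. The strains did not overlap, and the means were 101 ± 8.03 and 74.3 ± 9.99 CPM (SD, n = 3). Timp3 fell by 0.45 ± 0.07 on the log2 scale, 1.37-fold (edgeR, adjusted p = 0.000196). It lies within Syn3 on the other strand and shares 1733 exon bases with it, and Syn3 did not pass, with 4.80 ± 0.575 CPM in B6 and 4.69 ± 0.619 CPM in D2 (adjusted p = 0.873 by edgeR).

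Markers of the retinal pigment epithelium (Rpe65, Lrat, Best1, Ttr and Pmel) varied between libraries within both strains. None of the 5 was called and none was at 0, and their summed levels were 35.6, 74.4 and 103 CPM in B6 and 36.5, 74.8 and 22.0 CPM in D2. Within each strain the order of the libraries by Timp3 was that of these sums. Between the strains, replicates 1 of B6 and D2 had sums of 35.6 and 36.5 CPM and Timp3 at 92.8 and 71.8 CPM. Replicates 2 had sums of 74.4 and 74.8 CPM and Timp3 at 101 and 85.3 CPM. In the ciliary epithelium list 6 of 7 genes were lower in D2, against 15.3% of all tested genes, with none higher and none at 0. Its summed levels were 235 to 243 CPM in B6 and 178 to 183 CPM in D2. The part of either list in the Timp3 difference was not tested. In bulk tissue, fewer cells of a type and less RNA per cell cannot be told apart.

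Timp2, a soluble inhibitor that also takes part in the activation of pro-MMP2, had 53.4, 56.6 and 55.9 CPM in B6 and 51.3, 51.0 and 51.6 CPM in D2. The strains did not overlap, but the difference was small (log2 fold change -0.12 ± 0.04, edgeR, adjusted p = 0.0349). Its call was lost by DESeq2 (adjusted p = 0.0849), with the replicate number as a block (0.0663) and without B6 replicate 2 (0.101), B6 replicate 3 (0.0821), D2 replicate 2 (0.102) or D2 replicate 3 (0.0822). Timp4 was rare, with 2.33, 2.55 and 2.78 CPM in B6 and 1.97, 2.92 and 1.97 CPM in D2, and did not pass (-0.16 ± 0.17, adjusted p = 0.517 by edgeR). It lies in Syn2 on the other strand. The summed level of all Timp genes was 149, 161 and 168 CPM in B6 and 125, 140 and 120 CPM in D2, while that of all Mmp genes was 120, 120 and 120 CPM in B6 and 123, 121 and 124 CPM in D2.

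The authors' deposited table of the strain comparison listed 52 members among 18100 genes and called 6 of them, 5 lower and 1 higher in D2, against 9.20% of all genes. The authors' deposited table gave false discovery rates of 8.16e-33 for Mmp9, 1.50e-15 for Mmp28, 2.79e-14 for Adam32, 7.60e-14 for Adamts4, 5.45e-05 for Adam5 and 0.000166 for Adamts6. Other members had lower rates than Adamts6 but were not called in that table. Among them were Adamts3 (2.35e-19), Timp3 (2.27e-13), Adamtsl1 (7.10e-11), Adam23 (2.15e-08) and Mmp17 (4.89e-06). The largest rate among all genes called there was 0.000996. Those calls thus did not follow from the rate alone, and their number cannot be compared with the number called by edgeR here. The 6 members called by the authors were all called in the same direction by edgeR here. Both comparisons rest on the same series, so this is no independent check.

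Genes that act with the proteases were read from the same test by role. Of 13 chaperones and processing enzymes of ADAM10 and ADAM17, 2 were higher, 4 lower and 7 not passed. Over all tested genes 14.5% were higher and 15.3% lower, the shares to set beside the counts of this and the following lists. The paralogs Rhbdf1 and Rhbdf2, the iRhom proteins that carry ADAM17 to the cell surface, differed in opposite directions. Rhbdf1 rose from 3.55, 3.78 and 4.15 CPM in B6 to 9.35, 7.72 and 8.06 CPM in D2 (2.18-fold, log2 fold change 1.13 ± 0.11, edgeR, adjusted p = 1.68e-06). Rhbdf2 fell from 8.76, 7.71 and 9.58 CPM to 4.79, 3.89 and 4.44 CPM (1.99-fold, -1.0 ± 0.11, adjusted p = 8.26e-06 by edgeR). The strains did not overlap in either gene, and the summed level of the list was 325 to 333 CPM in B6 and 325 to 335 CPM in D2. Pcsk5, a proprotein convertase, fell by 0.49 ± 0.13 on the log2 scale (edgeR, adjusted p = 0.00855). Tspan5, the most abundant gene of the list and a tetraspanin partner of ADAM10, had 156 ± 4.03 CPM in B6 and 155 ± 5.31 CPM in D2 (adjusted p = 0.78 by edgeR).

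Of 31 membrane substrates of sheddases 29 were tested. Of these, 6 were higher, 10 lower and 13 not passed, against 14.5% higher and 15.3% lower over all tested genes. The median log2 fold change of the tested substrates was -0.09. Cd44, the hyaluronan receptor of Müller glia, rose from 12.4, 13.6 and 12.3 CPM in B6 to 27.5, 25.5 and 27.2 CPM in D2 (log2 fold change 1.05 ± 0.06, edgeR, adjusted p = 3.55e-09). The Notch ligand Dll1 fell from 19.4, 20.0 and 20.0 CPM to 9.93, 9.10 and 9.17 CPM (-1.09 ± 0.06, adjusted p = 4.93e-09 by edgeR). The adhesion protein Nrcam fell from 134 ± 2.11 to 96.7 ± 4.37 CPM (-0.48 ± 0.04, adjusted p = 6.20e-08 by edgeR). None of these 3 genes had overlapping strains. Aplp2, the substrate with the most counts, had 723 ± 5.39 CPM in B6 and 715 ± 21.6 CPM in D2 (adjusted p = 0.67 by edgeR).

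The proteoglycans that Adamts4 and Adamts5 cleave, with their link proteins, numbered 8, of which 7 were tested. Among these 2 were lower, none higher and 5 not passed, against 15.3% lower and 14.5% higher over all tested genes. The median log2 fold change of the tested genes was 0.14, so the list did not fall as a group. Versican (Vcan) fell from 16.5, 17.4 and 20.7 CPM in B6 to 5.68, 3.83 and 2.67 CPM in D2, the largest difference among the partner genes named here (4.55-fold, log2 fold change -2.19 ± 0.17, edgeR, adjusted p = 1.18e-07). Its highest D2 library was far below its lowest B6 library. The link protein Hapln1 had 1.87 ± 0.401 and 1.16 ± 0.299 CPM with overlapping strains (-0.70 ± 0.21, adjusted p = 0.0234 by edgeR). The Hapln1 call was lost by DESeq2 and by edgeR without B6 replicate 1, B6 replicate 2, D2 replicate 1 or D2 replicate 2, with adjusted p of 0.0598, 0.0587, 0.118, 0.0928 and 0.0699.

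Other endogenous inhibitors numbered 12, of which 11 were tested. There 2 were higher, 4 lower and 5 not passed, against 14.5% higher and 15.3% lower over all tested genes. Spock1 (testican-1), an inhibitor of membrane-type MMP activation, fell from 20.2, 22.3 and 21.6 CPM to 15.3, 15.7 and 13.5 CPM (-0.54 ± 0.06, edgeR, adjusted p = 1.34e-05). The serpin Serpine2 fell from 6.94 ± 0.193 to 4.16 ± 0.685 CPM (-0.74 ± 0.11, adjusted p = 0.000103 by edgeR). Cystatin C (Cst3), an inhibitor of cysteine proteases and the most abundant of the list, rose from 403 ± 6.03 to 469 ± 2.37 CPM (0.21 ± 0.03, adjusted p = 0.000257 by edgeR). The list thus held changes in both directions, with a median of -0.13.

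Of 17 zinc metallopeptidases of other families 13 were tested, with 3 higher, 5 lower and 5 not passed. For this list and the next, the shares over all tested genes were 14.5% higher and 15.3% lower. The insulin-degrading enzyme Ide fell from 180, 181 and 178 CPM in B6 to 89.8, 100 and 96.8 CPM in D2 (1.89-fold, log2 fold change -0.92 ± 0.04, edgeR, adjusted p = 4.93e-11). Ece1, which activates endothelin, rose from 29.8 ± 0.848 to 42.2 ± 0.743 CPM (0.49 ± 0.04, adjusted p = 3.71e-07 by edgeR), and Pappa2, a protease of insulin-like growth factor binding proteins, fell from 18.2 ± 1.72 to 10.9 ± 0.458 CPM (-0.75 ± 0.07, adjusted p = 1.73e-06 by edgeR). In the plasminogen system, whose product plasmin activates several pro-MMPs, 4 of 7 genes were tested, with 1 higher, 2 lower and 1 not passed, and Serpinb2 had no count. Tissue plasminogen activator (Plat) fell from 11.3, 12 and 11.1 CPM to 7.24, 7.85 and 6.70 CPM (-0.67 ± 0.08, adjusted p = 1.07e-05 by edgeR), and its inhibitor neuroserpin (Serpini1) fell from 117 ± 8.30 to 91.1 ± 4.65 CPM (-0.37 ± 0.05, adjusted p = 5.00e-05 by edgeR). Plgrkt, a plasminogen receptor, rose by 0.18 ± 0.05 on the log2 scale (edgeR, adjusted p = 0.0123, but 0.0835 by DESeq2).

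**Figure D4:**
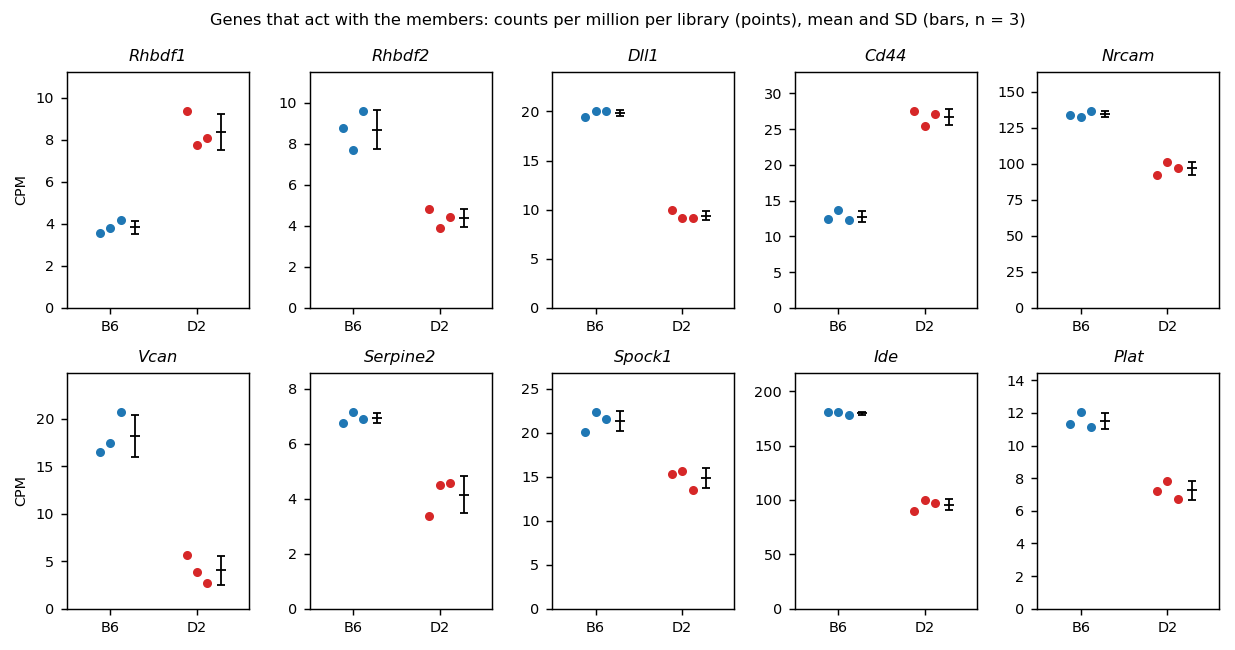
CPM of 10 genes that act with the members, in each library (points, blue B6 and red D2) with the mean and SD of each strain (black, n = 3); every vertical axis starts at 0. Rhbdf1 and Rhbdf2 lie in opposite order between the strains, and the mean of Vcan is 18.2 CPM in B6 against 4.06 in D2.

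Retinal identity of the libraries was checked with marker lists. Their called counts stand against 14.5% higher and 15.3% lower over all tested genes. Rod genes summed to 50958 to 51891 CPM in B6 and 45196 to 46487 CPM in D2, with 1 of 6 lower in D2. Of 5 cone genes 4 were lower in D2, with sums of 1183 to 1206 CPM in B6 and 978 to 1032 CPM in D2. Of 5 ganglion cell genes 2 were lower and 1 higher in D2, with sums of 462 to 561 CPM in B6 and 408 to 434 CPM in D2. The bipolar and horizontal cell lists each had 1 gene higher and 1 lower. The amacrine and fibroblast lists each had 1 higher and none lower, and the Müller glia list had 1 lower and none higher. Microglia genes summed to 22.6 to 24.5 CPM in B6 and 21 to 22.3 CPM in D2 with 1 of 4 lower. Of 5 endothelial and pericyte genes none was called, with sums of 112 to 117 CPM in B6 and 109 to 116 CPM in D2. Of 3 erythrocyte genes 2 were higher in D2, with sums of 53.0 to 81.9 CPM in B6 and 98.3 to 193 CPM in D2. Lens and cornea genes summed to at most 27.8 and 7.76 CPM in any library. None of these lists had a gene at 0. Their part in the differences of the members was not tested.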

How the data were processed

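Total RNA of mouse retina was sequenced with stranded libraries, per the labels' protocols. FastQC, STAR, SAMtools, edgeR and the build mm10 are listed in the submitters' processing notes. Tool versions, read counter, annotation and treatment of strand are items not given in the sources used here. A table of raw, unnormalized counts by gene symbol for 6 libraries was deposited. The authors also deposited a table with expression scores, of which only the sign of the strain difference was used, and a false discovery rate (an adjusted p-value) of their own comparison by an unnamed test.

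Counts were mapped to strains by the sample titles. Counts were filtered with filterByExpr, scaled with TMM factors and fitted in edgeR 4.0.16 (R 4.3.3) with a quasi-likelihood model of strain, with Benjamini-Hochberg adjustment of the p-values over 18588 genes. The filter asks for 3 libraries at 0.301 CPM or more (10 counts at the median library total). CPM values and their SD are unscaled, fold changes and the overlap of strains are TMM-scaled, and the standard error is the log2 fold change over the root of the F statistic; 95% intervals use Student's distribution with the degrees of freedom of the fit. The script was tested on simulated data. The alternatives were RLE and upper quartile factors, DESeq2 1.42.0, limma-voom (limma 3.58.1), other filters, a replicate block and leaving out each library. Intervals and floors cover the spread between these libraries or counting error only.

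All 83 members matched GENCODE M21 for mm10, which gave lengths, overlaps and the coding sequences; promoters are from RefSeq (GRCm38.p6). Genes that share exon bases or sequence with another gene are uncertain, since the counter's handling is not stated, and not every such overlap is reported here; of the 31-base words of Adam1a 78.4% occur in other genes.

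The members and lists were chosen with earlier results of these data known. Members were named when called with an absolute log2 fold change of at least 0.58, when among the 10 of highest mean CPM, when known from human eye disease or as the best known of their class, as the 6 other called members of lowest adjusted p, or as the 3 untested members with the most counts. In each partner list the 3 called genes of lowest adjusted p and the most abundant gene were named. Adam15, Adamts1, Adamts6 and Mmp17, the members without overlap that did not pass, Adam1a, Adamts7 and the genes with AP-1 matches fall outside this rule and were named after their values were seen.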

Additional observations from a re-analysis of the deposited data

How the results depend on the processing

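Of the 20 called members 14, 11 lower and 3 higher, passed under all 13 alternatives. Adamts19, which entered the main test through 1 strain only, passed in the 12 that tested it (all but a minimum of 1 CPM in 3 libraries). No tested member was called in the opposite direction under any alternative. The other 5 (Adam15, Adam33, Adamts1, Adamts17 and Timp2) are given with their values above; the cause was not tested. The members higher in D2 numbered 6, but 3 by DESeq2, and those lower 14, or 13 to 14 under the other settings. By DESeq2 the higher Adam genes went from 2 to 0, the higher Adamts genes from 2 to 1 and the lower Timp genes from 2 to 1, and a minimum of 1 CPM in 3 libraries left 1 higher Adam gene, with Adam33 not tested (nor without D2 replicate 3). Among partner lists, the higher chaperones went from 2 to 1 with upper quartile factors and by DESeq2, and by DESeq2 the lower proteoglycans and link proteins went from 2 to 1, the lower zinc metallopeptidases from 5 to 2 and the higher plasminogen genes from 1 to 0. When 1 library was left out, the higher members ran from 4 to 6 and the lower from 12 to 14. The higher Adam and Adamts genes and the lower Timp genes each ran from 1 to 2, the higher chaperones from 1 to 3, the higher proteoglycans and link proteins from 0 to 1, the lower from 1 to 2, and the lower zinc metallopeptidases from 2 to 4. Deviations from the strain mean correlated at 0.135, 0.0657 and -0.0296 between same-numbered libraries of the 2 strains. Between differently numbered libraries they correlated at -0.204 to 0.164. Whether the replicate numbers pair the samples cannot be settled by these values, since deviations from a mean of 3 libraries constrain each other. With the replicate block 6 members were higher and 13 lower, and the lower Timp genes numbered 1. Timp2 was the only member call lost with it. Counts over all genes, higher in D2, ran from 2081 to 2771 and, lower in D2, from 2371 to 3003. A threshold of 0.5 or 2 mean CPM kept 51 or 37 members in place of 48. Timp1, Mmp12 and Adam28 were not tested, since they did not pass the filter on low counts.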
